A study of Mus musculus with 6 samples.

Results

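The genes described here encode the filament-lining, crosslinking and motor proteins of stress fibres, the contractile actin bundles of fibroblasts: the tropomyosins Tpm1, Tpm2, Tpm3 and Tpm4, the calponins Cnn2 and Cnn3, the alpha-actinins Actn1 and Actn4, and the nonmuscle myosin II heavy chains Myh9 and Myh10. They were chosen by gene symbol, with earlier results of these data known. All 10 were found among the 24062 genes of the count table and passed the filter on low counts, which left 14090. RNA had been sequenced from C57BL/6 mouse embryonic fibroblasts in 2 groups of 3 libraries at day 4. In the p27 OE group a lentivirus overexpressed p27, the product of Cdkn1b, which holds back the cell cycle by inhibiting cyclin-dependent kinases, and the cells are labelled as not yet senescent. The comparison group is labelled EV control, and what EV stands for is not written out. The labels name no promoter for the vector and do not say that the libraries of a group came from separate cultures. The libraries numbered 1 differed from the others in Xist and Ddx3y, as given below, so a group does not hold the same cells throughout. Numbers 2 and 3 also differed in Xist, but separate cultures are not stated for them, so p-values may in part measure technical spread.

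In a stress fibre, actin filaments of opposite polarity are held together by alpha-actinin in repeated dense bodies and at adhesions. Nonmuscle myosin II filaments between the dense bodies pull the actin filaments past each other. Tropomyosins are coiled-coil dimers that lie along the actin filament and set which motors and severing proteins reach it, and calponins bind and stabilise the bundles.

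Cdkn1b was at 49.9 to 52.2 CPM (read counts scaled to library size, with TMM factors) in EV control and at 419 to 978 CPM in p27 OE, with no overlap of the groups. Its log2 fold change with the replicate number as a block was 3.48 ± 0.42 (SE), with an edgeR adjusted p of 0.0873, which missed the threshold of 0.05. DESeq2 called it without the block (adjusted p 4.12e-27) and with it (6.40e-16). So did edgeR with the block and without number 2 (3.09, adjusted p 1.46e-69), which leaves out the p27 OE library at 978 CPM. It was not called by edgeR with the block without number 1 (3.72, adjusted p 0.241) or without number 3 (3.64, adjusted p 0.439). Limma-voom with the block missed the threshold as well (adjusted p 0.0785). Total counts per library ran from 34920728 to 52098220, and the counts of the 10 genes from 13768 to 133955. The libraries numbered 1 stood apart, with Xist at 317 and 477 CPM and the Y-linked Ddx3y at 0.0556 and 0.0220 CPM. The other 4 held Ddx3y at 54.3 to 65.5 CPM. Their Xist was at 5.93 and 9.57 CPM in number 2 and at 0.601 and 0.504 CPM in number 3, EV control first. Libraries of the same number deviated together, so differences are given both without regard to the number and within it, and results are also given without the libraries numbered 1. The fibroblast label is met by Col1a1 at 22733 to 26723 CPM and Vim at 3195 to 3769.97 CPM. The summed level of 10 skeletal muscle markers was 5.85 to 7.93 CPM in EV control and 7.67 to 9.57 CPM in p27 OE, with Ckm at 0 in each library, Myod1 between 0 and 0.0879 CPM and Myog between 0 and 0.296 CPM. That of 9 smooth muscle markers was 5833 to 9582 CPM in EV control and 6780 to 11849 CPM in p27 OE, lowest within each group in the library numbered 1. Of those 9 genes 8 rose with the number as a block, and their part in the results below was not tested. Over all 14090 tested genes that fit called 3.8% higher and 3.63% lower. For genes at least as abundant as the lowest of the 10, the shares were 15.2% and 13.7%. The counts of the marker lists are to be read against these shares. The summed levels of the other marker lists, EV control first, were 5.93 to 6.61 and 8.72 to 9.49 CPM for 8 cardiac muscle genes (1 of 6 tested rose), 10.9 to 12.1 and 9.89 to 9.99 CPM for 7 epithelial genes (0 of 3 called), 2.94 to 4.57 and 4.80 to 5.29 CPM for 6 endothelial genes (1 of 3 rose), and 44.0 to 54.1 and 40.3 to 72.2 CPM for 6 macrophage genes (1 of 6 rose). The 10 fibroblast genes summed to 54103 to 59155 and 58098 to 59993 CPM, and 2 of them, Pdgfra and Lum, named after their values were seen, fell. In bulk RNA, a change in the number of cells of a type and a change in RNA per cell cannot be told apart.

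Upstream sequences are shown for 3 genes picked after their values were seen. In the fit with the replicate number as a block, Actn1 rose and its close relative Actn4 was not called. Cnn2, also not called, has the only CArG box match among the 10 genes. A link between these sequences and the values was not tested. They are taken from RefSeq promoter windows of GRCm38.p6 (250 bases before to 50 after a start, 11 windows for the 10 genes), trimmed to the part before the first exon base in GENCODE and written 5′ to 3′ on the strand of the gene. Cnn2 lies at chr10:79988350-79988583 on the plus strand, Actn1 at chr12:80260372-80260613 on the minus strand and Actn4 at chr7:28962341-28962582 on the minus strand. Capitals mark a CArG box, the site of the serum response factor SRF, in Cnn2 and CATTCC, the core site of TEAD factors, in Actn4.
Cnn2: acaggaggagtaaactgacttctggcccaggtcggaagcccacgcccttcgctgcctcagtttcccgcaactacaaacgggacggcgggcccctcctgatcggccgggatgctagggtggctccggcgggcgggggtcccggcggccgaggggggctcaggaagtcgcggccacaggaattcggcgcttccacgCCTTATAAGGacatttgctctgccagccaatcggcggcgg
Actn1: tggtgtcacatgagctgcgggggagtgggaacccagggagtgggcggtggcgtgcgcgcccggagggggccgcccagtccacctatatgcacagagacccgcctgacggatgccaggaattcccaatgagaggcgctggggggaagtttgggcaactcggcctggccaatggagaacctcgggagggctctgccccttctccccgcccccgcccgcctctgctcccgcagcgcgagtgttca
Actn4: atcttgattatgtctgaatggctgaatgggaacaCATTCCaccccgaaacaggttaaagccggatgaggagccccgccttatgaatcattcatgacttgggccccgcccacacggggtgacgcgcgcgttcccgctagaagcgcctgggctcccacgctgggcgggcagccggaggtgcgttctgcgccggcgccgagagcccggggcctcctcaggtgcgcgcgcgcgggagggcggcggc
Both motifs were searched on both strands of the whole windows. The CArG box was found in 1 of the 11 windows, that of Cnn2, 56 bases before the start, and in 1.63% of all 32851 windows. CATTCC was found in 3 of the 11, those of Tpm1 (56 bases before the start), Actn4 (216) and Myh10 (7), and in 14.7% of all windows. Of these genes Myh10 rose with the block, and Tpm1 and Actn4 were not called. A match is a stretch of letters and not a measured site, and no match says only that these letters are not in this window.

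The main test was the fit without the replicate number as a block. It called 0 of the 10 genes and 0 of all 14090 tested genes. The calls below rest on the fit with the block, which was put first because the main test called none. With the replicate number as a block, Actn1, Myh10 and Tpm2 rose in p27 OE, by 0.27 to 0.31 on the log2 scale, and none of the 10 genes fell. The remaining 7 were not called: Tpm1 and Myh9 had similar estimates with wider errors, and Tpm3, Tpm4, Cnn2, Cnn3 and Actn4 lay between -0.08 and 0.08 on the log2 scale. Among all tested genes the same fit, edgeR's quasi-likelihood test at an adjusted p under 0.05, called 3.8% higher and 3.63% lower; of its calls 51.1% were higher, and 39.6% with upper-quartile scaling. Among the 328 genes at least as abundant as the lowest of the 10, it called 15.2% higher and 13.7% lower, so the share of 3 in 10 is to be read against that background. In a single set of counts simulated for this comparison the blocked fit, on which the 3 calls rest, called unchanged genes more often than its threshold aims at. That set held fewer changed genes than the fit called here, so it does not give the rate of false calls in these data. Without the block edgeR called 0 of the 10 genes and 0% of all genes in either direction; DESeq2 without the block called 0 of the 10 genes, with 51 genes higher and 31 lower over the table, and limma-voom called 0 of the 10. At an unadjusted p under 0.05 without the block, 1 of the 10 passed, Tpm2, against 7.22% of all genes (3.2% higher). The median log2 fold change with the block was 0.16 over the 10 genes and -0.001 over all tested genes. It was 0.06, 0.14 and 0.09 over the 10 genes within numbers 1, 2 and 3. The difference had the same sign within all 3 numbers for 4 of the 10 genes in the higher direction, against 21.8% of all tested genes, and for 1 in the lower direction, against 23.7%. These shares were not taken for the 328 abundant genes.

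**Figure D1:**
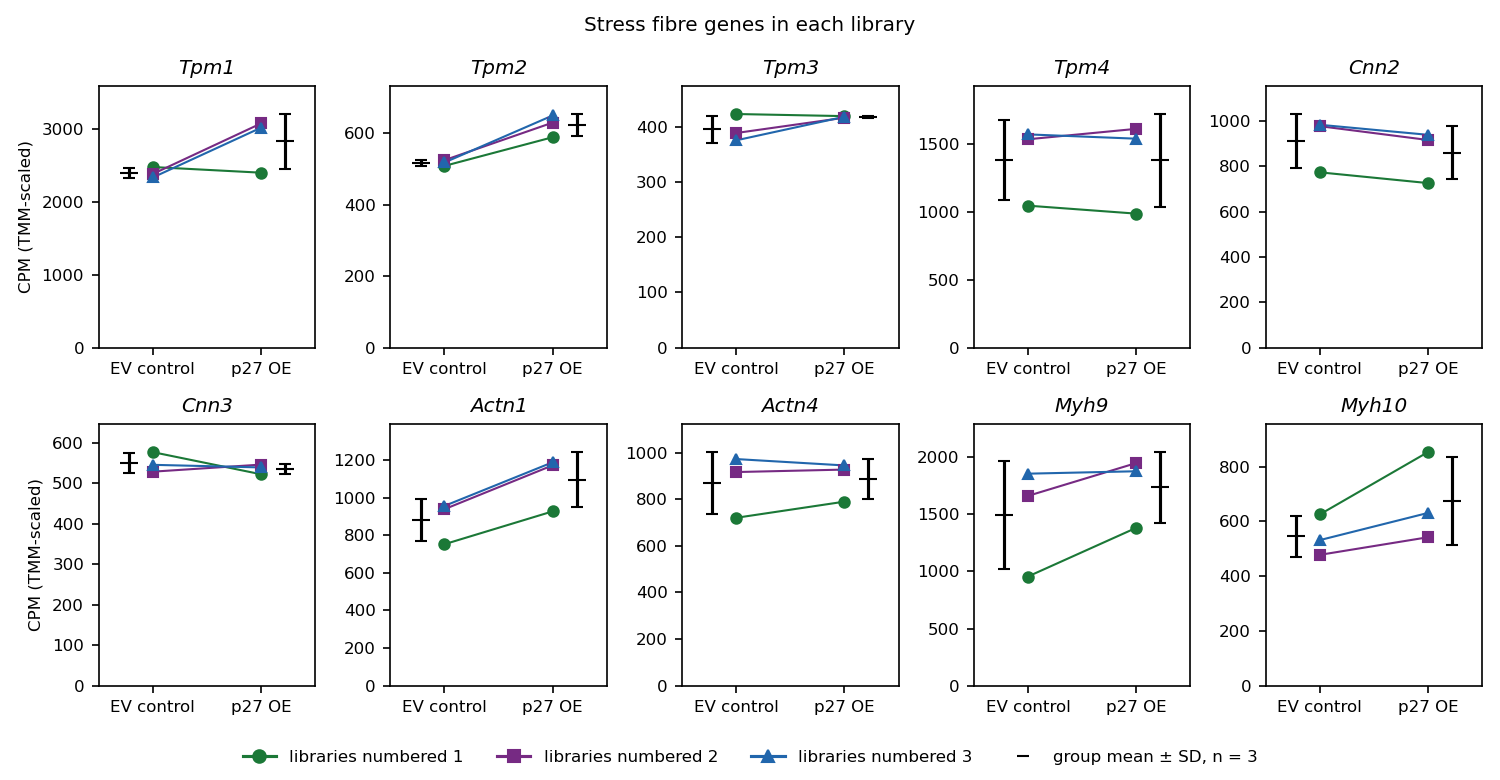
TMM-scaled CPM of each gene (vertical axes, each from 0) in the EV control and p27 OE libraries, with lines joining libraries of the same number and black bars for the group mean ± SD of 3 libraries. Actn1, Tpm2, Myh10 and Myh9 are higher in p27 OE along each line, Myh9 only slightly so for number 3. The libraries numbered 1 are the lowest of their group for Tpm2, Tpm4, Cnn2, Actn1, Actn4 and Myh9 and the highest for Tpm3 and Myh10.

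Among the tropomyosins Tpm2 (ENSMUSG00000028464.16 in GENCODE, matched by symbol, chromosome 4, 43514711 to 43523765 on the minus strand, GRCm38), which encodes beta-tropomyosin, rose. In EV control 1, 2 and 3 it stood at 508, 525 and 518 CPM. In p27 OE 1, 2 and 3 it stood at 589, 629.7 and 649.6 CPM. It was the only one of the 10 genes whose groups did not overlap, which held for 6.61% of all tested genes in the higher direction, 8.28% in the lower, and 9.15% in the higher direction of the 328 abundant genes. The group means were 517 ± 8.08 and 623 ± 31.0 CPM (SD, n = 3), and the log2 difference was 0.21, 0.26 and 0.33 within numbers 1, 2 and 3. The fit without the block gave 0.27 ± 0.07 (SE; unadjusted p 0.00704, adjusted p 0.657 by edgeR), and the block 0.27 ± 0.06 (adjusted p 0.0123). Without both libraries numbered 1 the blocked value was 0.29 (edgeR adjusted p 0.00239), and without those numbered 3 it was 0.24 (adjusted p 0.199).

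Tpm1 (ENSMUSG00000032366.15, chromosome 9, 67022590 to 67049406, minus strand) encodes alpha-tropomyosin. It stood at 2481, 2385 and 2337 CPM in EV control and at 2403, 3079.7 and 3021 CPM in p27 OE, the highest CPM of the 10 genes in each library. In p27 OE 1 it lay among the EV control values, while p27 OE 2 and 3 lay above all of them. The block gave 0.23 ± 0.08 (edgeR adjusted p 0.111), from log2 differences of -0.05, 0.37 and 0.37 within numbers 1, 2 and 3. Without the libraries numbered 1 it was called, at 0.37 ± 0.07 with an edgeR adjusted p of 0.00185 over the 2 remaining pairs. Counts per gene do not separate the many splice forms of a tropomyosin gene, so muscle, smooth muscle and short nonmuscle forms are summed.

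Tpm4 (ENSMUSG00000031799.9, chromosome 8, 72134975 to 72153142, plus strand), a gene of short tropomyosin forms, was at 1043, 1532 and 1568 CPM in EV control and at 985, 1608 and 1536 CPM in p27 OE. The spread followed the number and not the group, and both libraries numbered 1 lay below the other 4. The block gave -0.01 ± 0.06 (edgeR adjusted p 0.913). Without the block the value was -0.0047, and with RLE scaling it turned to 0.0014. Tpm3 (ENSMUSG00000027940.18, chromosome 3, 90072649 to 90100902, plus strand) was at 423.5, 389 and 376 CPM in EV control and 419.7, 417 and 419 CPM in p27 OE. Its p27 OE libraries were nearly equal and lay within the range of EV control, and the block gave 0.08 ± 0.06 (edgeR adjusted p 0.421). Tpm3 shares at least 200 bases at over 85% identity with Tpm3-rs7 (99.4%) and 7 processed pseudogenes, and Tpm4 with 1 (96.8%). Nothing in the labels says how reads that match several places were treated, so the values of these genes, and of Cnn2 and Cnn3 with 1 and 2 such pseudogenes, carry that uncertainty. By the same measure Actn4 shares 272 bases with Actn1 (90.1%), and Actn1 shares 225 bases with Actn2 (85.3%).

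Neither calponin was called. Cnn2 (ENSMUSG00000004665.10, chromosome 10, 79988584 to 79996062, plus strand), a calponin of nonmuscle cells, was at 773, 977 and 983 CPM in EV control and at 725, 916 and 938 CPM in p27 OE. It was lower within each number, by small and like amounts, with log2 differences of -0.09, -0.09 and -0.07, and the block gave -0.08 ± 0.06 (edgeR adjusted p 0.390). Cnn3 (ENSMUSG00000053931.11, chromosome 3, 121426497 to 121458207, plus strand), the acidic calponin, was at 577, 529 and 546 CPM in EV control and at 522, 546 and 539 CPM in p27 OE. The groups overlapped and the block gave -0.04 ± 0.06 (edgeR adjusted p 0.741). Cnn1, the smooth muscle calponin and not one of the 10 genes, rose by 0.39 ± 0.05 with the block (edgeR adjusted p 0.00127), from 168 to 351 CPM in EV control to 226 to 452 CPM in p27 OE, with groups that overlapped.

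Of the alpha-actinins, Actn1 (ENSMUSG00000015143.15, chromosome 12, 80167547 to 80260371, minus strand) rose, with the steadiest difference of the 10 genes. It was at 753, 939 and 956 CPM in EV control and at 927, 1173 and 1189 CPM in p27 OE. The groups overlapped, since p27 OE 1 lay below EV control 2 and 3, and the log2 difference within numbers 1, 2 and 3 was 0.30, 0.32 and 0.31. The fit without the block gave 0.31 ± 0.14 (edgeR adjusted p 0.687), and the block 0.31 ± 0.06 (adjusted p 0.00546), a 1.24-fold rise. Without the libraries numbered 1 it was 0.32 (edgeR adjusted p 0.00227), and without those numbered 3 it was 0.31 with an adjusted p of 0.0799 over 2 pairs. Actn4 (ENSMUSG00000054808.15, chromosome 7, 28893248 to 28962340, minus strand) encodes the other nonmuscle alpha-actinin. It was at 720.2, 916 and 972 CPM in EV control and at 789, 927 and 945 CPM in p27 OE, so the p27 OE libraries lay within the EV control range. The block gave 0.04 ± 0.06 (edgeR adjusted p 0.760). Its exons overlap those of Capn12 on the other strand over 316 bases, and the library kit does not mark strand. Annotated genes on the other strand also overlap exons of Actn1 (Gm47766 over 363 bases and Gm47767 over 88), Cnn3 (Gm42928 over 538) and Tpm4 (Gm26586 over 134). The striated muscle actinins Actn2 and Actn3, which carry Z-discs, were at 0.222 to 0.583 and 2.81 to 3.89 CPM and were not called.

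**Figure D2:**
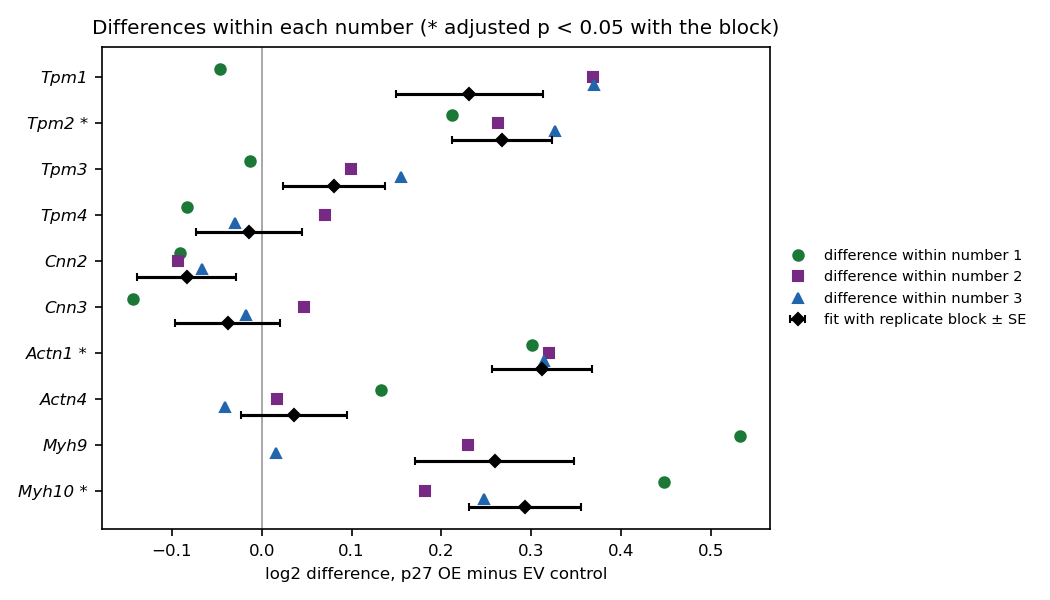
Log2 difference between p27 OE and EV control (horizontal axis) for each of the 10 genes (rows), within numbers 1, 2 and 3 (coloured symbols) and from the fit with the replicate block (diamonds, ± SE). The 3 differences of Actn1 lie between 0.30 and 0.32, while those of Myh9 run from 0.02 to 0.53 and those of Tpm1 from -0.05 to 0.37.

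Of the motor genes, Myh10 (ENSMUSG00000020900.15, chromosome 11, 68691559 to 68816632, plus strand), the heavy chain of nonmuscle myosin IIB, rose. It was at 625, 478 and 531 CPM in EV control and at 853, 542 and 631 CPM in p27 OE. The groups overlapped, with EV control 1 above p27 OE 2, and each p27 OE library lay above the EV control library of its number, by 0.45, 0.18 and 0.25 on the log2 scale. The block gave 0.29 ± 0.06 (edgeR adjusted p 0.0137) and the fit without it 0.31 ± 0.18 (adjusted p 0.772). Without the libraries numbered 1 the blocked value was 0.21 (adjusted p 0.0192), and without those numbered 3 it was 0.32 (adjusted p 0.0806). With the block and a correction for length and GC content, Myh10 was at 0.20 (edgeR adjusted p 0.0211). Myh9 (ENSMUSG00000022443.17, chromosome 15, 77760587 to 77842175, minus strand), the heavy chain of nonmuscle myosin IIA, was at 956, 1662 and 1857 CPM in EV control and at 1382, 1949.6 and 1878 CPM in p27 OE. Its log2 differences within numbers 1, 2 and 3 were 0.53, 0.23 and 0.02, and the block gave 0.26 ± 0.09 (edgeR adjusted p 0.110). The estimate moved with number 1: without those libraries it was 0.12 (adjusted p 0.288), and without those numbered 3 it was 0.38 and called (adjusted p 0.0458). DESeq2 with the block also called Myh9 (0.27, adjusted p 0.0369), as did edgeR with the block and a correction for length and GC content (0.20, adjusted p 0.0490). Myh11, the smooth muscle heavy chain and not one of the 10 genes, rose by 1.08 ± 0.06 with the block (edgeR adjusted p 7.34e-07), and Myh14, of myosin IIC, was at 0.0370 to 0.424 CPM and was not called.

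The balance between relatives of a family was compared inside each library as a log2 ratio of counts, which does not depend on how libraries are scaled to each other. In EV control 1, 2 and 3 the Actn1 to Actn4 ratio was 0.06, 0.04 and -0.02. In p27 OE 1, 2 and 3 it was 0.23, 0.34 and 0.33. The groups did not overlap, and the mean difference was 0.28. Per kilobase of exon, Actn1 made up 51.3 ± 0.770% of the alpha-actinin reads in EV control and 56.1 ± 1.02% in p27 OE (SD, n = 3). The exact two-sided permutation test gave p = 0.1, the smallest that 3 against 3 libraries allow, and 0.45 after adjustment over the 9 ratios. Tpm2 to Tpm3 was the other ratio without overlap, at 0.26, 0.43 and 0.46 in EV control. In p27 OE it was 0.49, 0.60 and 0.63, a difference of 0.19 with the same exact permutation p of 0.1 and adjusted p of 0.45. In the other 7 ratios the groups overlapped and the exact permutation p was 0.3 or higher. The Myh9 to Myh10 ratio differed more by number than by group: it was 0.61 and 0.70 in the libraries numbered 1 and 1.57 to 1.85 in the other 4. With the number as a block, the exact sign-flip test over 3 pairs cannot go below 0.25, which it gave for 5 of the 9 ratios (adjusted p 0.45 for each). Their differences within numbers 1, 2 and 3 were 0.17, 0.30 and 0.35 for Actn1 to Actn4, 0.22, 0.16 and 0.17 for Tpm2 to Tpm3, and 0.30, 0.19 and 0.36 for Tpm2 to Tpm4. For Tpm1 to Tpm4 they were 0.04, 0.30 and 0.40, and for Tpm3 to Tpm4 0.07, 0.03 and 0.18.

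**Figure D3:**
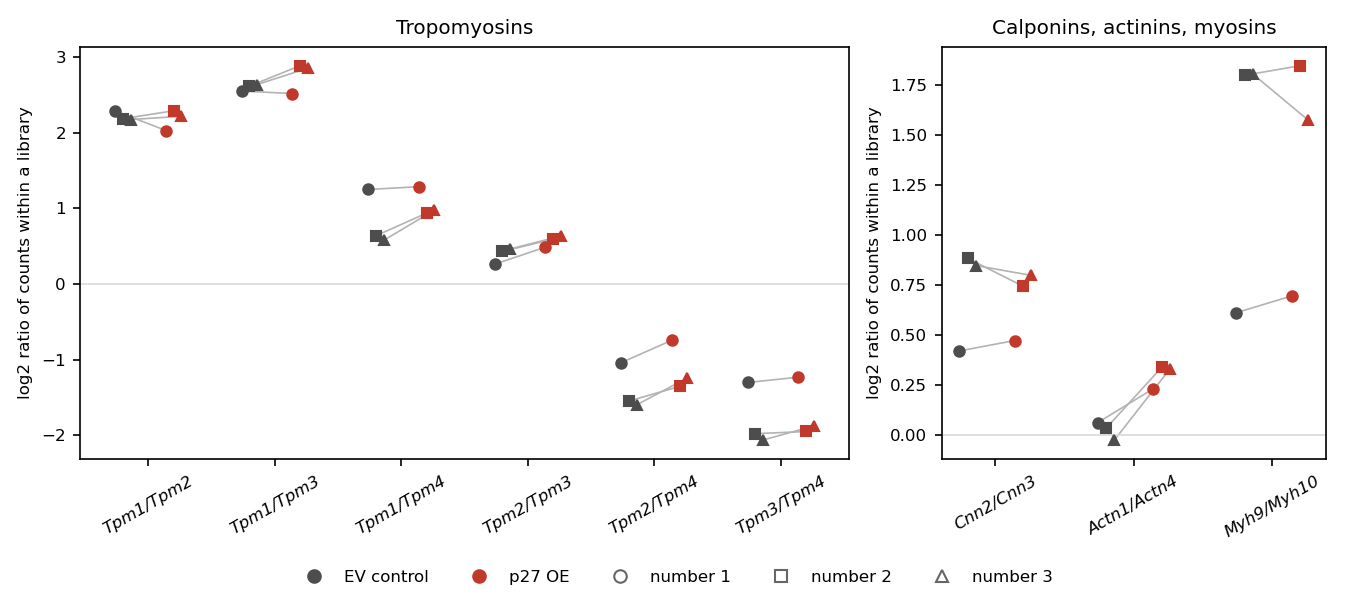
Log2 ratio of counts between relatives within each library (vertical axes), for the tropomyosins on the left and the calponins, alpha-actinins and myosin heavy chains on the right, in EV control (grey) and p27 OE (red), with lines joining libraries of the same number. The Actn1 to Actn4 ratio lies between -0.02 and 0.06 in EV control and between 0.23 and 0.34 in p27 OE, while the Myh9 to Myh10 ratio separates the libraries numbered 1 from the other 4.

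Levels were compared between genes as CPM per kilobase of exon, with exon lengths from GENCODE. Tpm4 was highest, with a median over the 6 libraries of 721 and a range of 463 to 756, followed by Tpm1 at 511 (489 to 644), whose range overlapped that of Tpm4. Tpm4 was above Tpm1 in 4 of the 6 libraries, and Tpm1 above Tpm4 in both libraries numbered 1. Cnn2 came next at 377 (295 to 399), and lay below Tpm1 in each library. Cnn3 at 265, Actn1 at 249, Myh9 at 237, Actn4 at 234 and Tpm2 at 234 followed with ranges that overlapped from neighbour to neighbour. Tpm3 at 126 (113 to 127) and Myh10 at 67.5 (55.2 to 98.6) were lowest, each apart from its neighbours. The length covers all exons of a gene, so a gene expressed mainly as short forms, such as a tropomyosin, is understated on this scale.

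The 10 genes did not share 1 profile over the libraries. As a measure of likeness, the root mean square difference between log2 CPM profiles centred over the 6 libraries was smallest between Tpm3 and Cnn3 (0.0705), Cnn2 and Actn4 (0.0750) and Tpm1 and Tpm2 (0.0875), and largest between Tpm4 and Myh10 (0.532). Among 7329 genes averaging 20 CPM or more, those nearest to Actn1 were Tars (0.0240), Tns1 (0.0275) and Tnks1bp1 (0.0306), and those nearest to Tpm1 were Hsd17b12 (0.0334), Gss (0.0387) and Rasa2 (0.0466). Nearest to Cnn2 were Fam220a (0.0190), Usb1 (0.0208) and Atp6v1b2 (0.0227), and to Myh9, less closely, Afap1 (0.0672), Ly75 (0.0734) and Lamb1 (0.0745). These profiles mix the difference between groups with that between numbers.

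Among 18 genes of myosin light chains, kinases and small GTPases that set myosin activity, 2 rose and 1 fell with the block. Their median log2 fold change was 0.09. The same fit called 3.8% of all tested genes higher and 3.63% lower, and 15.2% and 13.7% of the 328 abundant genes. The kinase gene Cdc42bpa rose by 0.21 ± 0.05 (edgeR adjusted p 0.0287), a call that ended with the length and GC correction (0.11, adjusted p 0.179), without number 2 (adjusted p 0.0740) and without number 3 (adjusted p 0.204). The regulatory light chain gene Myl12b fell by 0.30 on the log2 scale (edgeR adjusted p 0.00955), from 98.4, 102 and 106 CPM in EV control to 73.3, 87.0 and 89.8 CPM in p27 OE, with no overlap. Of 26 actin crosslinkers and scaffold genes 9 rose and 1 fell, with a median of 0.13. The filamin gene Flnc, whose protein crosslinks actin into networks, rose by 0.47 ± 0.06 (edgeR adjusted p 0.000406) without overlap, and Synpo2, which binds alpha-actinin and filamin, rose by 0.77 ± 0.10 (adjusted p 0.000916). Flna, Pdlim5, Palld, Ldb3, Zyx and Cald1 also rose, and Pdlim2 fell; these 7 are named after their values were seen. Synpo2 is also among the smooth muscle markers.

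Genes of actin assembly and turnover had a median of 0.03, with 2 of 25 higher and none lower. Enah, which speeds filament growth at barbed ends, rose by 0.48 ± 0.07 (edgeR adjusted p 0.00318) and the formin gene Daam1 by 0.28 ± 0.07 (adjusted p 0.0280), while Evl, a relative of Enah, stood at -0.23 ± 0.08 (adjusted p 0.0846). Enah was not called with the length and GC correction (0.35 ± 0.12, edgeR adjusted p 0.178), and Daam1 was not called without number 2 (0.19, adjusted p 0.187) or without number 3 (0.34, adjusted p 0.0506). SRF is a factor whose cofactors sense free actin and which drives many cytoskeletal genes. None of the transcripts of Srf, Mkl1, Mkl2 and Myocd passed with the block, and the activity of SRF was not measured. Their values were 0.13 ± 0.06 for Mkl1, 0.08 ± 0.07 for Mkl2 and 0.26 ± 0.27 for Myocd, with edgeR adjusted p of 0.210, 0.558 and 0.601, and Srf, given after its value was seen, was at 0.05 ± 0.06. These counts are read against the 3.8% of all tested genes called higher and 3.63% called lower, or, for genes as abundant as the 10, against 15.2% and 13.7%, and no test of a list was made.

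**Figure D4:**
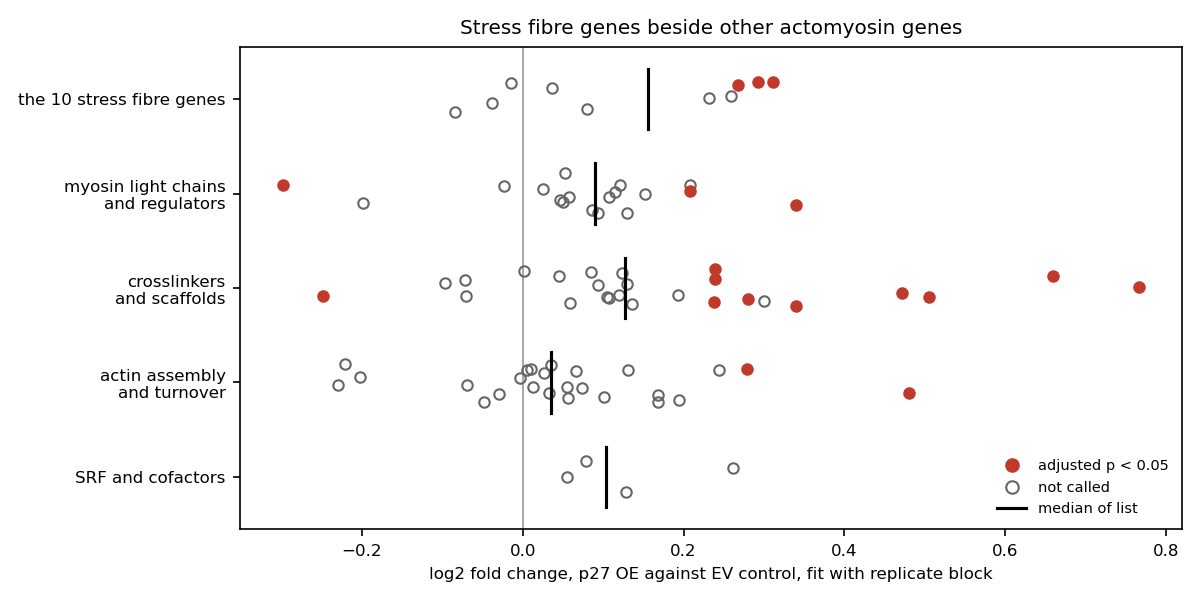
Log2 fold change between p27 OE and EV control in the fit with the replicate block (horizontal axis) for each tested gene (circles) of the 10 stress fibre genes and of 4 other actomyosin lists (rows), filled in red at an adjusted p under 0.05, with a black line at the median. Among the 10 genes 3 are filled, at 0.27 to 0.31, and among the crosslinkers and scaffolds 10 of 26, from -0.25 to 0.77.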

How the data were processed

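RNA was column-extracted and made into libraries with the TruSeq RNA kit, which does not mark strand, per the labels' protocols. The authors deposited raw counts per gene, with 1 column per library. The submitters' processing notes list mm10 as the build, featureCounts 1.4.6 of Subread for counting, and Bowtie2 2.2.6 beside TopHat2 2.0.14. They name no annotation, strand setting or treatment of multiply matching reads. No column was left unmapped (0).

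Genes were filtered with edgeR's filterByExpr (minimum count 10, minimum total 15) and scaled by TMM. They were tested over all 14090 genes with edgeR 4.0.16 in R 4.3.3 (quasi-likelihood F test, robust, two-sided, Benjamini-Hochberg, threshold 0.05), first without and then with the replicate number as a block. The fit without the block was the main test, and the calls given in the results are those of the fit with the block. The SE comes from the F statistic. The numbers are shared in the titles. Deviations from the group mean (log2 CPM, prior count 2) were correlated between libraries of the same number. The correlation was 0.772, 0.416 and 0.535 for numbers 1, 2 and 3, each above 0.1. EV control 2 correlated with p27 OE 3 at 0.391 and EV control 3 with p27 OE 2 at 0.408. The correlation thus separates number 1 only, while Xist also differed between numbers 2 and 3. The fits were tested on simulated data. Alternatives were RLE and upper-quartile scaling, other filters, DESeq2 1.42.0, limma-voom (limma 3.58.1), a test against a 1.2-fold change, leaving libraries out, and a loess correction (span 0.3) for length and GC content from GENCODE M21 (GRCm38, the assembly of mm10), which 13455 tested genes had. The 10 genes and the lists were chosen with earlier results of these data known. Named are the 10 genes, Cdkn1b, relatives of the 10, the 3 members of each list with the smallest p in the blocked fit, and for Tpm1, Cnn2, Actn1 and Myh9 the 3 genes nearest in profile; some list members that this rule names are not reported here.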

Additional observations from a re-analysis of the deposited data

How the results depend on the processing

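Without a block, the number of the 10 genes called was 0 higher and 0 lower under each of the scalings, filters and tools tried. The number of all genes called was then 1 higher with no filter, 51 higher and 31 lower with DESeq2, and 0 to 1 higher when single libraries were left out. With the replicate block 3 of the 10 genes were called higher, also with RLE or upper-quartile scaling, either filter and limma-voom, 4 with DESeq2 and 4 with the length and GC correction (Myh9 added in both), and 0 against a 1.2-fold change. Leaving out the libraries of 1 number gave 1 to 4, the 4 being without number 1, where Tpm1 was added, and the 1 without number 3, where Myh9 alone was called and Actn1, Tpm2 and Myh10 were not. All genes called with the block numbered 535 higher and 512 lower, 567 and 475 with RLE, 483 and 736 with upper-quartile scaling, 689 and 727 with no filter, 543 and 475 with the CPM filter, 473 and 334 with DESeq2, 536 and 506 with limma-voom, 39 and 22 against 1.2-fold, and 579 and 651 with the length and GC correction. With the block and without number 1, 2 or 3 these were 893, 503 and 224 higher and 848, 425 and 106 lower; leaving out single libraries without a block gave 0 to 1 higher and 0 lower.

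The direction was kept under each setting for Tpm1, Tpm2, Tpm3, Actn1 and Myh10. Tpm4 was 0.0014 with RLE and with DESeq2 without a block. With libraries left out the log2 value ran from -0.17 to 0.19 for Tpm4 (0.020 with the block without number 1), -0.19 to 0.025 for Cnn2, -0.08 to 0.015 for Cnn3, -0.091 to 0.12 for Actn4 (-0.013 with the block without number 1), -0.020 to 0.41 for Myh9 and -0.037 to 0.85 for Myocd. The difference in the Actn1 to Actn4 ratio ran from 0.25 to 0.31 with single libraries left out and that of Tpm2 to Tpm3 from 0.13 to 0.23, while Tpm1 to Tpm2 (-0.092 to 0.039), Tpm3 to Tpm4 (-0.13 to 0.33), Cnn2 to Cnn3 (-0.19 to 0.054) and Myh9 to Myh10 (-0.43 to 0.30) changed sign. The cause of these changes was not tested.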
